A study of Homo sapiens with 4 samples.

Results

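NFE2L2, its transcriptional targets and the genes of glutathione synthesis were followed in 2 human lung cancer cell lines after silencing of CDH3. The set held 10 genes, NFE2L2, NQO1, HMOX1, GCLC, GCLM, TXNRD1, SRXN1, SLC7A11, AKR1C1 and ME1, chosen by gene name, and each matched 1 of the 58174 rows of the deposited table. HCC827 is a lung adenocarcinoma line whose growth depends on a mutant EGFR, and H1299 was derived from a lymph node metastasis of a lung tumour and lacks p53. Cells of each line received an siRNA against CDH3 (siCDH3), the P-cadherin gene, or a control siRNA (siCTR), for 48 h, and total RNA was sequenced. The 4 groups were HCC827 siCDH3, HCC827 siCTR, H1299 siCDH3 and H1299 siCTR, with 1 library each, and all 4 received an siRNA. Each cell line stands for 1 tumour, and the sources name neither the siRNA sequences nor the number of cultures.

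NRF2, the protein made from NFE2L2, is a transcription factor whose amount is known to be set mainly by protein breakdown. In unstressed cells KEAP1 holds NRF2 for ubiquitination by a ligase built on CUL3 and RBX1. When oxidants or electrophiles modify KEAP1, NRF2 accumulates, pairs with a small MAF protein and binds antioxidant response elements, sites that the repressor BACH1 also occupies. Its targets make glutathione and thioredoxin reductase, supply NADPH, detoxify quinones and carbonyls, and break down heme. In lung cancer the pathway is known for mutations of KEAP1 and NFE2L2 that leave it switched on, and transcript levels of NFE2L2 do not measure NRF2 protein.

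The antioxidant response element has a core that is written here as TGACNNNGC, where N is any base. This core was searched on both strands in windows of 250 bases before to 50 bases after the transcription start, taken from RefSeq on GRCh38.p14. The windows describe the reference genome and not these cell lines. Of the 10 genes, 8 had a window in the table, with 10 windows in all. HMOX1 and SLC7A11 were not matched. The core was present in 4 of the 10 windows, those of GCLM, ME1 and both starts of TXNRD1, and in 13.3% of all 35116 windows of the table. By gene this was 3 of the 8. Sequence outside the windows was not searched, so a window without a match does not show that its gene lacks the core. These 4 windows are shown because they hold the sequence through which NRF2 is known to act, and capitals mark each match. A match on the opposite strand appears as its reverse complement.
GCLM, chr1:93909381-93909680, minus strand: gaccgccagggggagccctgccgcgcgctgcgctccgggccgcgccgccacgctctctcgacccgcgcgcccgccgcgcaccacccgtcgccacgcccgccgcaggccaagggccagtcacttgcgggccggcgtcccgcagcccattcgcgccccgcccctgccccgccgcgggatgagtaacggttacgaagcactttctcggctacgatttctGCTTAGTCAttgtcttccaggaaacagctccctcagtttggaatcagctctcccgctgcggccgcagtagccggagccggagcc
ME1, chr6:83431002-83431301, minus strand: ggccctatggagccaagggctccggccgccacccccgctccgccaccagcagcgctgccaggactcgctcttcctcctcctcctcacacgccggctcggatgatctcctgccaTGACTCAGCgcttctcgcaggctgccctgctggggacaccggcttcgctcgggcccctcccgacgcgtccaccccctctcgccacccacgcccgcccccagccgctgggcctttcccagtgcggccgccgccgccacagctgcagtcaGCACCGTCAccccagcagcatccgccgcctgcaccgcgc
TXNRD1, upstream start, chr12:104215529-104215828, plus strand: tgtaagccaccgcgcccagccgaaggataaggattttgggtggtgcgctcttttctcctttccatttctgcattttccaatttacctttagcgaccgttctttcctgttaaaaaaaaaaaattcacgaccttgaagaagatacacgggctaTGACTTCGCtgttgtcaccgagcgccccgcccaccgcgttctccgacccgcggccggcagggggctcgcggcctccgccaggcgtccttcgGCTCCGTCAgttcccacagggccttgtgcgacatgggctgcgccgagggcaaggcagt
TXNRD1, downstream start, chr12:104286782-104287081, plus strand: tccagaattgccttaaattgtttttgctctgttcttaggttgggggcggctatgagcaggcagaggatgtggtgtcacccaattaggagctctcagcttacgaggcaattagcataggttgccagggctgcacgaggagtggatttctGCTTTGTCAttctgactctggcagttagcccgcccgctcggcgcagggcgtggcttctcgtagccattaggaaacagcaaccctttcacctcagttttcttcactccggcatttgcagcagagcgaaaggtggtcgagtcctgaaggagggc

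The match in GCLM began 34 bases before the start and read TGACTAAGC on its own strand. In ME1 a match 137 bases before the start, TGACTCAGC, contains the letters TGACTCA bound by AP-1 factors, and another began at base 12 after it. The upstream window of TXNRD1 had matches 99 and 8 bases before the start, and the downstream window had TGACAAAGC, 102 bases before it. These are matches of letters, not measured binding sites.

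The values were TPM, a relative transcript abundance, which scale each gene by length and each library to a fixed sum, so that levels of different genes can be compared and the sequencing depth is unknown. Mitochondrially encoded genes took 34.4% of TPM in HCC827 siCDH3, 36.2% in HCC827 siCTR, 16.4% in H1299 siCDH3 and 13.5% in H1299 siCTR, which lowers all other TPM values in HCC827. HCC827 had 6 of 6 epithelial, 2 of 4 mesenchymal (FN1 and VIM) and 2 of 4 lung markers (NKX2-1 and NAPSA) at 5 TPM or more, and the surfactant genes SFTPB and SFTPC were under it. H1299 had 3 of 6 epithelial and 4 of 4 mesenchymal markers at that level, and 0 of 4 lung markers. In every library the only marker of hematopoietic cells at 5 TPM or more was CD68 (1 of 5, summed level 122 to 143 TPM), fibroblast markers reached that level for at most 1 of 5 (summed level 3.43 to 5.92 TPM), and endothelial markers for 0 of 4 (0.421 to 1.90 TPM). PTPRC and CD3E, which define leukocytes and T cells, were listed at 0 in 3 of the 4 libraries, and COL1A2 at 0 in all 4. CDH3 itself had 78.8 TPM in HCC827 siCDH3 against 173 TPM in HCC827 siCTR. In H1299 it had 0.169 TPM in siCDH3 against 1.21 TPM in siCTR, so it was low there under either siRNA.

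The levels of the 10 genes differed widely within a library. TXNRD1 (ENSG00000198431), the selenoenzyme that reduces thioredoxin, had the highest TPM of the set in all 4 libraries, with 423 in HCC827 siCDH3, 420 in HCC827 siCTR, 252 in H1299 siCDH3 and 259 in H1299 siCTR. NQO1 (ENSG00000181019), which reduces quinones without releasing semiquinone radicals, came second in every library, with 144 TPM in HCC827 siCDH3, 159 TPM in HCC827 siCTR, 178 TPM in H1299 siCDH3 and 197 TPM in H1299 siCTR. SRXN1 (ENSG00000271303), the sulfiredoxin that repairs overoxidised peroxiredoxins, had 57.3 and 56.5 TPM in HCC827 siCDH3 and siCTR, and 74.1 and 72.0 TPM in H1299 siCDH3 and siCTR. Together the 10 genes held 761 and 762 TPM in the HCC827 siCDH3 and siCTR libraries, and 673 and 676 TPM in the H1299 siCDH3 and siCTR libraries, most of it from TXNRD1 and NQO1.

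The subunits of glutamate-cysteine ligase, the rate-limiting enzyme of glutathione synthesis, were expressed at similar levels in all 4 libraries. GCLC (ENSG00000001084), the catalytic subunit, had 16.9 TPM in HCC827 siCDH3, 17.4 TPM in HCC827 siCTR, 17.1 TPM in H1299 siCDH3 and 19.5 TPM in H1299 siCTR. GCLM (ENSG00000023909), the modifier subunit, had 12.5 TPM in HCC827 siCDH3, 11.8 TPM in HCC827 siCTR, 11.9 TPM in H1299 siCDH3 and 14.2 TPM in H1299 siCTR. GCLC therefore exceeded GCLM in every library, and the ratio of their TPM was 1.35 in HCC827 siCDH3, 1.47 in HCC827 siCTR, 1.44 in H1299 siCDH3 and 1.37 in H1299 siCTR. The ranges of the lines overlapped for GCLM. For GCLC the highest HCC827 value lay inside the H1299 range.

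ME1 (ENSG00000065833), the cytosolic malic enzyme that yields NADPH, had 15.2 and 14.5 TPM in HCC827 siCDH3 and siCTR, and 7.82 and 7.19 TPM in H1299 siCDH3 and siCTR. AKR1C1 (ENSG00000187134), an aldo-keto reductase of steroids and reactive carbonyls, was the lowest of the set everywhere, with 0.595 TPM in HCC827 siCDH3, 0.387 in HCC827 siCTR, 0.947 in H1299 siCDH3 and 1.496 in H1299 siCTR. It stayed under the filter of 5 TPM in all 4 libraries and entered no test. AKR1C1 is also uncertain, because 28.3% of the 50-base words of its GENCODE transcripts occur in those of its paralog AKR1C2, which was as low, at 0.592 and 0.429 TPM in HCC827 siCDH3 and siCTR, and 1.15 and 1.64 TPM in H1299 siCDH3 and siCTR. SRXN1 shares 84.7% of its words with an overlapping annotated gene, AL121758.1, which had at most 0.515 TPM. NFE2L2 shares 13.2% with the overlapping AC019080.1, which had 3.73 and 3.64 TPM in HCC827 siCDH3 and siCTR, and 3.09 and 3.82 TPM in H1299 siCDH3 and siCTR.

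**Figure D1:**
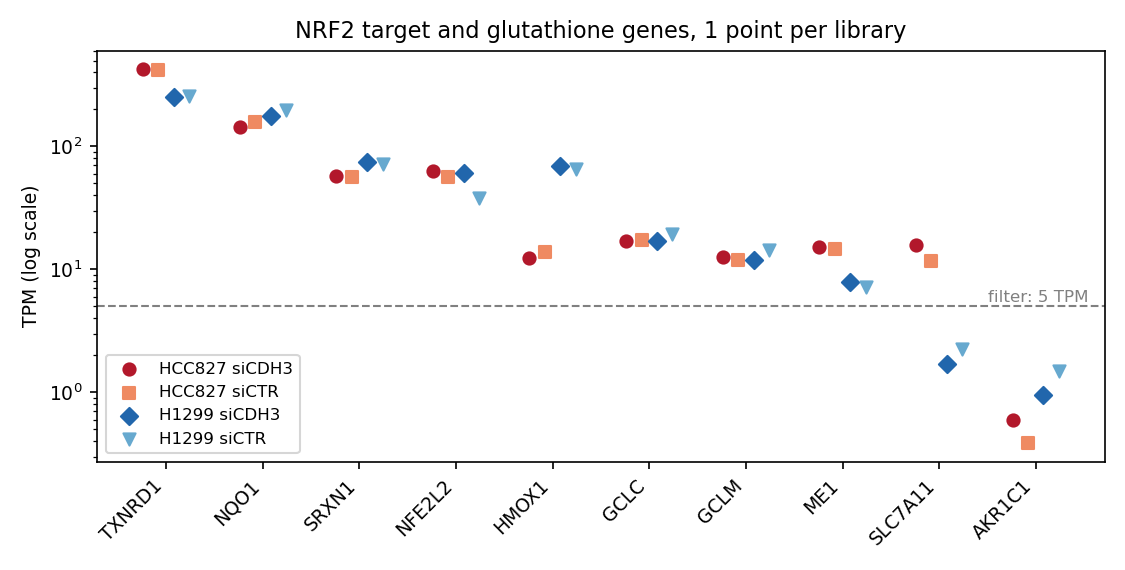
TPM of each of the 10 genes on a log scale, 1 point per library, genes ordered by their mean. TXNRD1 is highest and AKR1C1 lowest in all 4 libraries, the HMOX1 points of HCC827 (12.3 and 14.0 TPM) lie under those of H1299 (68.9 and 65.4 TPM), and the SLC7A11 points of H1299 lie under the dashed filter line.

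In both HCC827 libraries the order began with TXNRD1, NQO1, NFE2L2, SRXN1 and GCLC and ended with AKR1C1. Between them it ran SLC7A11, ME1, GCLM and HMOX1 in siCDH3, and ME1, HMOX1, GCLM and SLC7A11 in siCTR. The ranges over the line's 2 libraries overlapped for NFE2L2 with SRXN1, for SLC7A11 with ME1 and for HMOX1 with GCLM. SLC7A11, at 11.7 to 15.7 TPM, spanned the ranges of ME1, HMOX1 and GCLM in part or whole. In both H1299 libraries the order was TXNRD1, NQO1, SRXN1, HMOX1, NFE2L2, GCLC, GCLM, ME1, SLC7A11 and AKR1C1, and no neighbours overlapped. These ranges hold 1 siCDH3 and 1 siCTR library each, and no group was replicated.

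The first comparison set siCDH3 against siCTR in each line. Within each line, log2 ratios of TPM + 1 were taken, siCDH3 over siCTR, for genes with 5 TPM or more in at least 1 of the 2 libraries, and a gene counted as past the rule at 2-fold (a log2 ratio of 1 or more, or -1 or less). The added 1 shrinks the ratios of genes with low TPM. In HCC827, 0 of the 9 measured genes of the set were past 2-fold, and 1.84% of all 11043 measured genes were. In H1299 it was 0 of 8, against 2.46% of 11622 genes. The median log2 ratio of the set was 0.02 in HCC827, where that of all measured genes was 0.03. In H1299 it was 0.0008 for the set and -0.11 for all genes. With 1 library per group these differences have no replicate check within a line. Of all H1299 genes past the rule 64.3% were lower in siCDH3, and 48.9% were once the median was set to 0. In bulk RNA of this kind, fewer cells that express a gene and less RNA per cell cannot be told apart.

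NFE2L2 (ENSG00000116044) had the largest ratio of the 8 measured genes of the set in H1299, with 60.7 TPM in siCDH3 and 38.3 TPM in siCTR. This was a log2 ratio of 0.65, or 0.76 above the median of all genes, and 7.87% of measured genes had a larger ratio in either direction. In HCC827 it had 63.2 TPM in siCDH3 and 56.7 TPM in siCTR, a log2 ratio of 0.15. The H1299 siCTR library was thus low, and the other 3 lay between 56.7 and 63.2 TPM. By Euclidean distance of log2(TPM + 1), centred on each gene's mean, SLC25A10, HIST1H2BG and AC074143.1 were the most like NFE2L2 of 11585 protein-coding genes over the 4 libraries (distances 0.0646, 0.0842 and 0.0970). Its nearest gene within the set was TXNRD1, at 0.649.

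The enzyme genes downstream of NRF2 had smaller ratios. In H1299 the log2 ratios of TXNRD1, SRXN1, HMOX1 and ME1 lay between -0.04 and 0.11, and those of NQO1, GCLC and GCLM were -0.15, -0.18 and -0.24. Relative to the median of all genes, the last 3 were -0.04, -0.07 and -0.14. In HCC827 the same 7 genes lay between -0.17 (HMOX1) and 0.08 (GCLM). The ratio of NQO1 TPM, siCDH3 over siCTR, was 0.906 in HCC827 and 0.902 in H1299. The range of these 7 genes lay inside the central 90% of all measured genes in each line.

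SLC7A11 (ENSG00000151012), the cystine importer that supplies cysteine for glutathione, had 15.7 TPM in HCC827 siCDH3 and 11.7 TPM in HCC827 siCTR, a log2 ratio of 0.40. That was the largest ratio of the set in HCC827, and 12.2% of measured genes had a larger one. In H1299 it had 1.71 TPM in siCDH3 and 2.24 TPM in siCTR, both under the filter. The signs in the lines were opposite, and with 1 library per group the difference between the responses could not be tested.

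**Figure D2:**
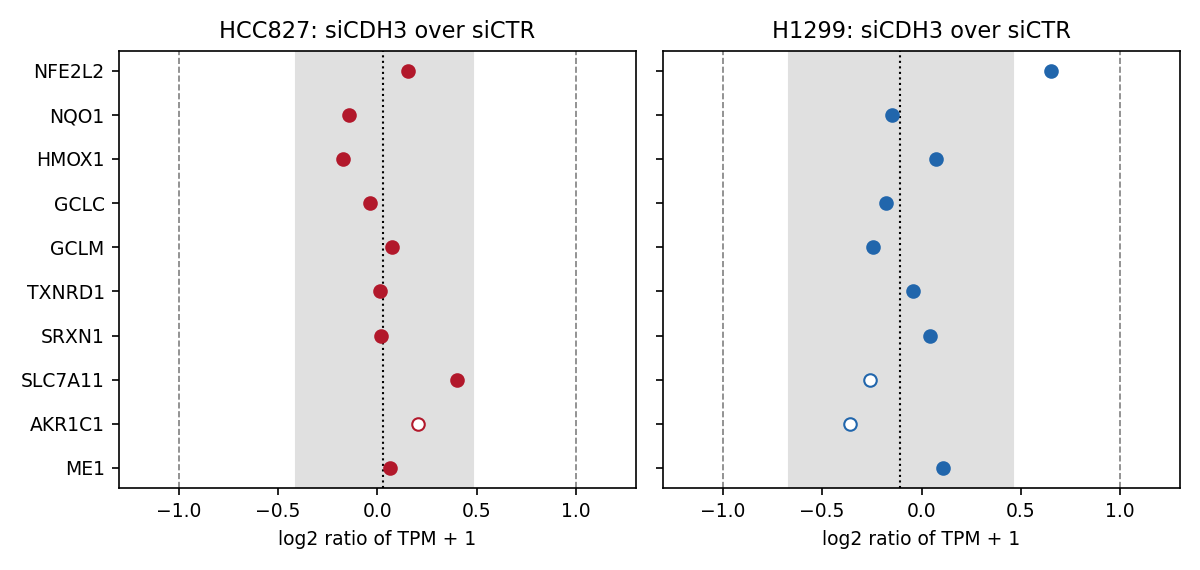
log2 ratio of TPM + 1, siCDH3 over siCTR, for each of the 10 genes in HCC827 (left) and H1299 (right). The grey band is the central 90% of all measured genes, the dotted line their median (0.03 in HCC827, -0.11 in H1299), the dashed lines are the 2-fold rule, and open points are genes under 5 TPM in both libraries. NFE2L2 in H1299, at 0.65, is the only filled point outside the band.

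A test over both lines was made with limma on log2(TPM + 1), with the cell line as a block, so that the 2 lines are the replicates. It called 0 of the 9 measured genes of the set at a Benjamini-Hochberg adjusted p under 0.05, and 0 of 9 had an unadjusted p under 0.05. Of all 12941 genes, 0.00773% were called, which is 1 gene, TNFRSF6B, and 581 had an unadjusted p under 0.05. The fold changes of the set lay between -0.15 and 0.40 on the log2 scale, with SEs of 0.15 to 0.21. NFE2L2 had the largest, at 0.40 ± 0.19 (SE, 2 lines, limma adjusted p = 0.95), and it was higher in siCDH3 in both lines. SLC7A11 had 0.07 ± 0.21 (SE, 2 lines, limma adjusted p = 0.99). CDH3, the silenced gene, had -1.02 ± 0.16 (SE, 2 lines, limma adjusted p = 0.68) and was not called. At this spread and size of design even a change of several SE could be missed, so the test does not show that the levels were equal.

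The regulators of NRF2 were then examined. KEAP1, which targets NRF2 for breakdown, had 25.5 TPM in HCC827 siCDH3 and 38.3 TPM in HCC827 siCTR, a log2 ratio of -0.57, and 37.1 TPM in H1299 siCDH3 and 33.1 TPM in H1299 siCTR, a log2 ratio of 0.16. The HCC827 siCDH3 library was the lowest of the 4. BACH1, the repressor at antioxidant response elements, had 29.6 and 28.1 TPM in HCC827 siCDH3 and siCTR, and 21.4 and 35.1 TPM in H1299 siCDH3 and siCTR. Of the small MAF partners, MAFG had 17.5 and 19.7 TPM in HCC827 siCDH3 and siCTR, and 21.0 and 32.9 TPM in H1299 siCDH3 and siCTR. MAFK lay between 22.9 and 32.2 TPM and MAFF between 3.02 and 7.98 TPM. Of 9 regulators and partners, 0 were past 2-fold in HCC827 (9 measured) or H1299 (8 measured), and limma called 0 of 9 over both lines, with 0 at an unadjusted p under 0.05.

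The wider redox network was covered by 7 gene lists with 92 different genes, all of them in the table. In HCC827, 1 of 81 measured listed genes was past 2-fold, beside 1.84% of all measured genes. GSTM3, a mu-class glutathione transferase, had 5.37 TPM in siCDH3 and 11.8 TPM in siCTR, a log2 ratio of -1.01, and in H1299 it had 15.2 TPM in siCDH3 and 22.4 TPM in siCTR, a log2 ratio of -0.53. In H1299, 1 of 76 measured listed genes was past 2-fold, beside 2.46% of all measured genes. CHAC1, which breaks down glutathione and is a target of ATF4, had 13.6 TPM in siCDH3 and 2.53 TPM in siCTR, a log2 ratio of 2.05, whereas it had 12.2 and 12.3 TPM in HCC827 siCDH3 and siCTR. In H1299 CHAC1 passed the filter through the siCDH3 library alone, which favours a difference, so its place in the count is given no weight. Over both lines its limma log2 fold change was 1.02 ± 0.50 (SE, 2 lines), and it was not called. Just short of the 2-fold rule on this scale were TRIB3 in HCC827 (206 TPM in siCDH3 and 103 TPM in siCTR) and the carbonyl reductase gene CBR1 in H1299 (54.7 TPM in siCDH3 and 109 TPM in siCTR). With limma over both lines 0 of 86 measured listed genes were called, and the lowest adjusted p was 0.94, for GSTM3. An unadjusted limma p under 0.05 was found for 4 of the 86, namely GSTM3, TRIB3, AKR1C3 and DDIT3, and for 581 of all 12941 genes.

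The median log2 ratio of siCDH3 over siCTR was also taken for each list. For glutathione synthesis, recycling and use it was -0.09 in HCC827 (22 measured) and -0.03 in H1299 (22 measured). For thioredoxin, peroxiredoxin and superoxide enzymes it was -0.02 in HCC827 and -0.09 in H1299, and for NADPH production 0.05 in HCC827 and -0.12 in H1299. For detoxification and export it was 0.02 in HCC827 and -0.13 in H1299, for heme and iron -0.26 in HCC827 and -0.21 in H1299, and for ATF4 and its targets -0.10 in HCC827 and 0.02 in H1299. For NRF2 regulators and partners it was 0.14 in HCC827 and -0.24 in H1299. The medians of all genes were 0.03 in HCC827 and -0.11 in H1299. Below the HCC827 median were 5 of 7 heme and iron genes, 17 of 22 glutathione genes and 9 of 13 thioredoxin genes. So were 6 of 8 ATF4 genes, 7 of 13 detoxification genes, 5 of 10 NADPH genes and 2 of 9 regulators. Below the H1299 median were 4 of 7 heme and iron genes, 8 of 22 glutathione genes and 5 of 11 thioredoxin genes. There it was 2 of 8 ATF4 genes, 6 of 11 detoxification genes, 7 of 10 NADPH genes and 5 of 8 regulators. HMOX2, the constitutive heme oxygenase, had opposite signs, with 46.9 and 59.0 TPM in HCC827 siCDH3 and siCTR, and 42.7 and 23.5 TPM in H1299 siCDH3 and siCTR.

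The second comparison set the lines against each other. Over all genes the median log2 ratio of HCC827 over H1299 was -0.23 in the siCDH3 libraries and -0.39 in the siCTR libraries, so some values are also given relative to it. In the siCDH3 libraries 2 of 9 measured genes of the set were past 2-fold, and 39.4% of all 12542 genes were. In the siCTR libraries it was again 2 of 9, and 41.2% of 12601 genes. Of all genes past the rule in the siCTR libraries 67.4% were lower in HCC827, and 48.7% were once the median was set to 0. In the siCDH3 libraries these shares were 61.2% and 50.2%. With the median set to 0, TXNRD1 and ME1 also passed 2-fold in the siCTR libraries, and ME1 did in the siCDH3 libraries. With the median set to 0, the siCTR count was 4 of 9, and 37.4% of all genes passed.

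HMOX1 (ENSG00000100292), which degrades heme to biliverdin, iron and carbon monoxide, was lower in HCC827. It had 12.3 TPM in HCC827 siCDH3 and 14.0 TPM in HCC827 siCTR, against 68.9 TPM in H1299 siCDH3 and 65.4 TPM in H1299 siCTR. The ranges of the lines, of 2 libraries each, did not overlap. The share of all genes without such overlap was not counted. Between the lines limma called 53.7% of all genes at 5 TPM or more in both. On the TPM scale HMOX1 was 5.61-fold lower in HCC827 in the siCDH3 libraries and 4.68-fold lower in the siCTR libraries. The limma fold change over both siRNAs, with siRNA as a block, was -2.27 ± 0.16 on the log2 scale (SE, 2 libraries per line, limma adjusted p = 0.00039).

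SLC7A11 was higher in HCC827, 9.21-fold on the TPM scale in the siCDH3 libraries and 5.21-fold in the siCTR libraries. Its limma fold change was 2.30 ± 0.21 on the log2 scale (SE, 2 libraries per line). It passed the filter through its HCC827 values alone, which favours a difference, and its call is given no weight as a test. Of all 3217 genes that passed through 1 line alone, limma called 2913. SLC3A2, the heavy chain with which SLC7A11 forms the cystine transporter, was also higher, with 361 and 390 TPM in HCC827 siCDH3 and siCTR, against 210 and 171 TPM in H1299 siCDH3 and siCTR (log2 fold change 0.98 ± 0.18, limma adjusted p = 0.0077). SLC3A2 exceeded SLC7A11 23.0-fold in HCC827 siCDH3 and 33.4-fold in HCC827 siCTR, against 123-fold in H1299 siCDH3 and 76.3-fold in H1299 siCTR.

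TXNRD1 and ME1 were higher in HCC827 by less than or about 2-fold. TXNRD1 had a log2 fold change of 0.72 ± 0.15 (SE, 2 libraries per line, limma adjusted p = 0.012), and relative to the median of all genes its log2 ratio was 0.98 in the siCDH3 libraries and 1.09 in the siCTR libraries. Without HCC827 siCDH3 or without HCC827 siCTR, fits that had to drop the siRNA block gave TXNRD1 adjusted p values of 0.0515 and 0.0511. ME1 had a log2 fold change of 0.90 ± 0.15 (SE, 2 libraries per line, limma adjusted p = 0.0060), and on the TPM scale it was 1.95-fold higher in the siCDH3 libraries and 2.02-fold higher in the siCTR libraries.

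The other measured genes of the set did not pass the line test. NQO1 had a log2 fold change of -0.30 ± 0.15 and SRXN1 of -0.35 ± 0.15, and the SRXN1 adjusted p was 0.097, or 0.0497 without the siRNA block. GCLC had -0.08 ± 0.15 and GCLM -0.09 ± 0.17 (SE, 2 libraries per line). Relative to the median of all genes in the siCTR libraries the signs turned, to log2 ratios of 0.09 for NQO1, 0.05 for SRXN1, 0.24 for GCLC and 0.15 for GCLM. In the siCDH3 libraries the same relative values were -0.07 for NQO1, -0.13 for SRXN1, 0.22 for GCLC and 0.30 for GCLM, so no direction is given for these 4. NFE2L2 had 0.31 ± 0.19 (limma adjusted p = 0.21), with a log2 ratio of 0.06 between the lines in the siCDH3 libraries and 0.56 in the siCTR libraries. With TPM rescaled over nuclear genes its fold change was 0.70 and passed the test (limma adjusted p = 0.041), and it also passed without the H1299 siCDH3 library (0.040). In all, limma called 4 of 9 genes of the set, SLC7A11 included, against 62.9% of all 12941 genes. Of the 8 genes at 5 TPM or more in both lines it called 3, of which 2 were higher and 1 lower in HCC827, against 53.7% of 9724 such genes. Of those 9724 genes, 1591 were called higher and 3634 lower in HCC827. The labels do not say whether the 2 libraries of a line came from separate cultures, and those 2 received different siRNAs. With 1 residual degree of freedom, these p-values rest on how far the siRNA differences of the 2 lines disagree, moderated over genes. That spread may be technical, and it is not a spread between replicates of a group.

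**Figure D3:**
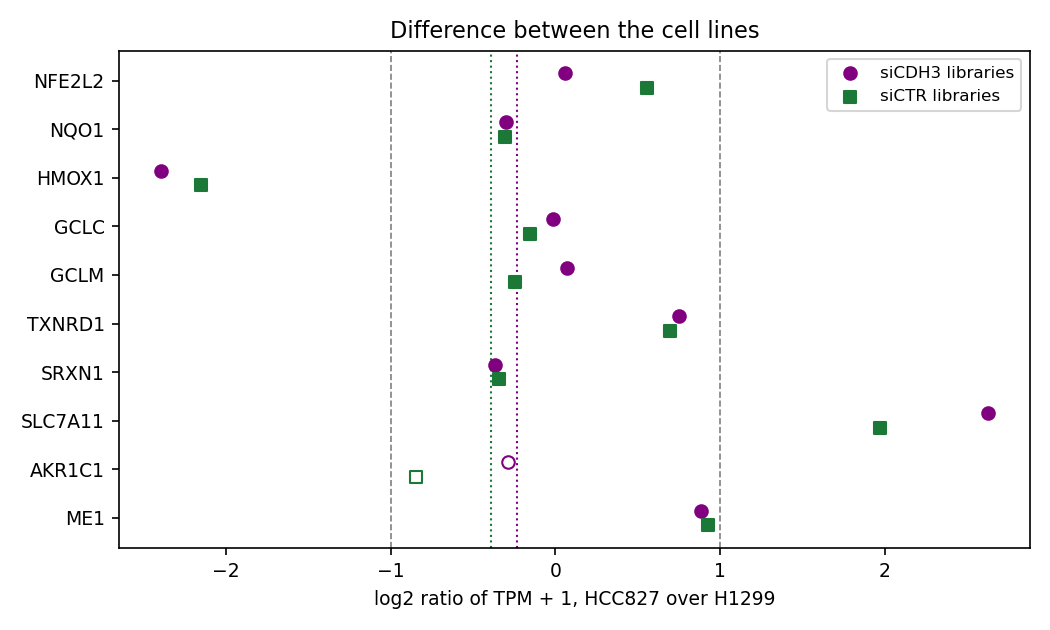
log2 ratio of TPM + 1, HCC827 over H1299, for each of the 10 genes in the siCDH3 libraries (circles) and the siCTR libraries (squares). Dotted lines are the medians of all genes (-0.23 and -0.39), dashed lines the 2-fold rule, and open points genes under 5 TPM. HMOX1 lies past -1 and SLC7A11 past 1 in both pairs of libraries, and TXNRD1 and ME1 lie between 0.70 and 0.92.

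Of the 8 regulators and partners at 5 TPM or more in both lines, limma called 0 higher and 2 lower in HCC827, a share of 25% beside the 53.7% of all such genes. Lower calls also outnumbered higher ones over all such genes, 3634 against 1591. MAFF passed the filter through HCC827 alone, with 7.98 and 6.91 TPM in HCC827 siCDH3 and siCTR against 4.04 and 3.02 TPM in H1299 siCDH3 and siCTR. This favours a difference, so its call is given no weight. SQSTM1, the autophagy receptor that sequesters KEAP1 and is itself an NRF2 target, was lower in HCC827, with 554 and 463 TPM in HCC827 siCDH3 and siCTR against 1016 and 908 TPM in H1299 siCDH3 and siCTR (-0.92 ± 0.15, adjusted p = 0.0058). RBX1 was lower as well (-0.75 ± 0.17, adjusted p = 0.017). Relative to the median of all genes its log2 ratio was -0.33 in the siCDH3 libraries and -0.55 in the siCTR libraries. The limma fold changes of listed genes are not set relative to the median of all genes, which was -0.31. KEAP1 (-0.16 ± 0.22, adjusted p = 0.56), BACH1 (0.07 ± 0.23, adjusted p = 0.80), MAFG (-0.48 ± 0.18, adjusted p = 0.074), MAFK (0.31 ± 0.17, adjusted p = 0.17), CUL3 and NFE2L1 did not pass the limma test.

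Genes of glutathione synthesis, recycling and use differed between the lines in both directions. Of 18 at 5 TPM or more in both lines, limma called 7 higher and 5 lower in HCC827, a share of 66.7% beside the 53.7% of all such genes. The other 8 of the 26 measured passed the filter through 1 line alone, which favours a difference, and their calls are given no weight. The microsomal glutathione transferase gene MGST1 had 509 and 517 TPM in HCC827 siCDH3 and siCTR, against 15.1 and 18.4 TPM in H1299 siCDH3 and siCTR. GSTP1, the pi-class transferase, was higher too, with 738 and 837 TPM in HCC827 siCDH3 and siCTR against 303 and 261 TPM in H1299 siCDH3 and siCTR. The glutathione reductase gene GSR was higher (1.09 ± 0.24, limma adjusted p = 0.015), as were CTH and CBS of cysteine synthesis (3.14 ± 0.15 and 0.73 ± 0.17). Lower in HCC827 were GPX4, the peroxidase of membrane lipids, with 273 and 302 TPM in HCC827 siCDH3 and siCTR against 561 and 599.6 TPM in H1299 siCDH3 and siCTR, and the mu-class transferase GSTM3 (-1.11 ± 0.19). Among the genes that passed through 1 line alone, GGT1, which breaks down extracellular glutathione, had 19.8 and 24.6 TPM in HCC827 siCDH3 and siCTR against 3.20 and 3.97 TPM in H1299 siCDH3 and siCTR. The transferase GSTM2 had 0.512 and 1.08 TPM in HCC827 siCDH3 and siCTR against 29.3 and 21.8 TPM in H1299 siCDH3 and siCTR. GSTM1 shares 37.2% of its 50-base words with GSTM2, so reads of these paralogs can be given to either. GSS, which completes glutathione, had 83.9 and 81.8 TPM in HCC827 siCDH3 and siCTR, and 78.4 and 78.6 TPM in H1299 siCDH3 and siCTR (0.08 ± 0.15, adjusted p = 0.68).

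**Figure D4:**
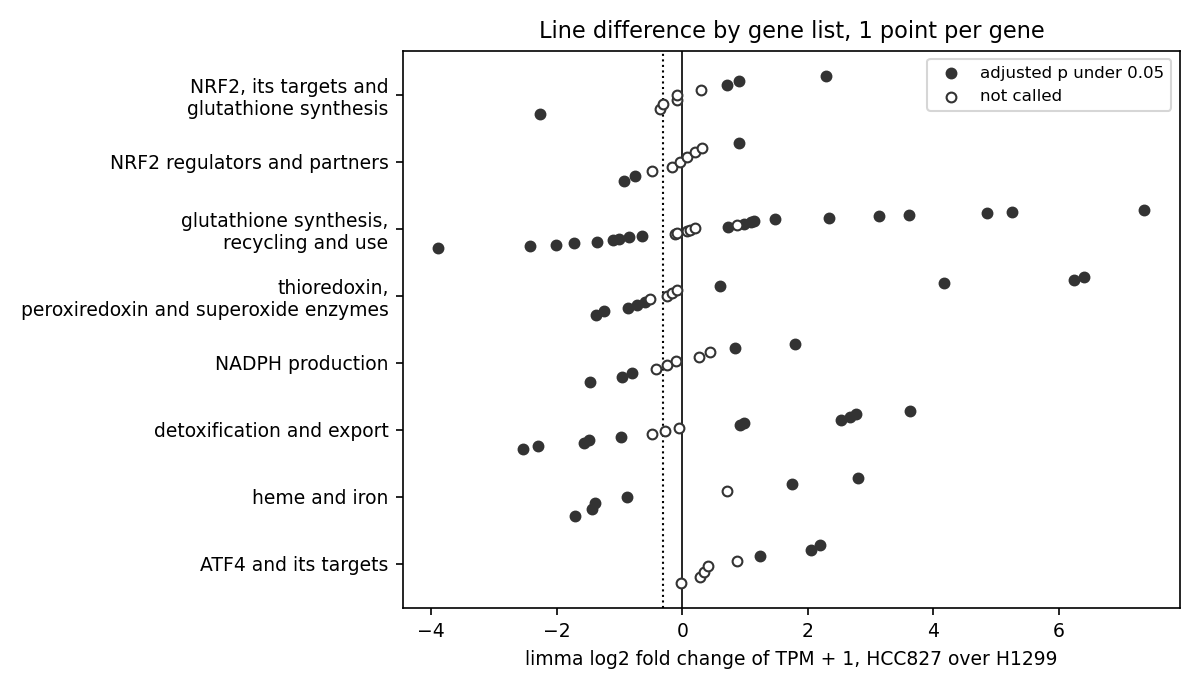
limma log2 fold change of TPM + 1, HCC827 over H1299, for each measured gene of the set and of the 7 lists. Filled points have a Benjamini-Hochberg adjusted p under 0.05 and include 15 listed genes, and SLC7A11, that passed the filter through 1 line alone, and the dotted line is the median of all genes (-0.31). Each list except ATF4 and its targets has filled points on both sides of 0. For NRF2 regulators and partners the only filled point above 0 is MAFF, which passed the filter through HCC827 alone. Among genes of that list at 5 TPM or more in both lines, 0 were called higher and 2 lower.

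The thioredoxin, NADPH, detoxification and heme lists also had calls in both directions. Of 11 thioredoxin, peroxiredoxin and superoxide genes at 5 TPM or more in both lines, limma called 2 higher and 5 lower in HCC827, a share of 63.6%. Of all genes at that level in both lines 53.7% were called, 1591 higher and 3634 lower. The mitochondrial superoxide dismutase gene SOD2 had 405 and 355 TPM in HCC827 siCDH3 and siCTR against 18.0 and 22.7 TPM in H1299 siCDH3 and siCTR, whereas PRDX1 had 252 and 261 TPM in HCC827 siCDH3 and siCTR against 728 and 607 TPM in H1299 siCDH3 and siCTR. Of the 10 genes placed on the list named NADPH production, all at 5 TPM or more in both lines, 50% were called. Higher were 2, IDH1 (1.80 ± 0.20) and MTHFD2, and 3 lower, ME2 and ME3 (-0.96 ± 0.15 and -1.47 ± 0.16), the mitochondrial relatives of ME1, and TKT. PGD, an enzyme gene of the pentose phosphate pathway, did not pass the limma test (-0.42 ± 0.15, adjusted p = 0.067). Of 10 detoxification genes at that level in both lines 3 were higher, among them the export pump ABCC3 (2.53 ± 0.15), and 4 lower, among them OSGIN1 (-2.54 ± 0.22) and NQO2 (-1.56 ± 0.15), a share of 70%. ABCC2, CBR3, AKR1B10 and AKR1C3 passed the filter through 1 line alone, which favours a difference, and their calls are given no weight.

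Of 7 heme and iron genes, all at 5 TPM or more in both lines, 2 were higher in HCC827 and 4 lower, a share of 85.7% called beside 53.7% of all such genes. The biliverdin reductase genes BLVRA and BLVRB were lower (-0.88 ± 0.15 and -1.44 ± 0.15), as was FECH, which makes heme (-1.39 ± 0.15). HMOX2, the constitutive heme oxygenase, had the other sign and did not pass the limma test (0.71 ± 0.31, adjusted p = 0.0998). The 2 called higher were FTH1 (2.81 ± 0.15) and TFRC (1.75 ± 0.15). Of 8 genes of the ATF4 list 3 were higher and 0 lower in HCC827, a share of 37.5%. The 3 were TRIB3 (2.20 ± 0.20), PHGDH (2.06 ± 0.15) and PSAT1 (1.24 ± 0.16), the last 2 being enzymes of serine synthesis. Of the 92 listed genes 71 reached 5 TPM in both lines, 10 in HCC827 alone, 5 in H1299 alone and 6 in neither. Of the 71, limma called 19 higher and 23 lower, a share of 59.2% beside 53.7% of all such genes (1591 higher and 3634 lower). All 15 that passed through 1 line alone were called, as were 2913 of the 3217 such genes over all.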

How the data were processed

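The authors deposited 1 table of TPM values per gene for the 4 libraries. Genome build hg19 is named, per the submitters' processing notes, whereas the aligner and quantifier are not stated. TPM keeps no depth, so no counting error can be given. Groups came from the sample labels. The 10 genes and the other lists were chosen with earlier results of these data known. Genes with at least 5 TPM in 1 or more of the libraries compared were kept, 1 was added to each TPM, and log2 ratios were taken. limma 3.58.1 in R 4.3.3 tested log2(TPM + 1) over 12941 genes with cell line and siRNA as terms, leaving 1 residual degree of freedom, after a test on simulated data. Libraries were paired by cell line, as the labels give it. The names given are all 10 genes, KEAP1, BACH1, the small MAF genes and CDH3, listed genes past 2-fold within a line or among the most different between lines, and the 3 genes nearest to NFE2L2. Regulators and listed genes named for other reasons, such as those just short of the rule, HMOX2, GSS, PGD and SLC3A2, were chosen after their values were seen. Alternatives were other pseudocounts, filters, fold rules and scalings, no block, and each library left out. The split of line calls by genes at 5 TPM or more in both lines was chosen after the data were seen. Shared sequence was counted as 50-base words in GENCODE 29 transcripts, and promoter windows came from RefSeq on GRCh38.p14, a build other than that of the files.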

Additional observations from a re-analysis of the deposited data

How the results depend on the processing

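In H1299 the count of the set past the rule was 0 at 2-fold and 1 (NFE2L2) at 1.5-fold, where 10.3% of all genes passed. Between the lines in the siCTR libraries the count was 2 of 9 (41.2% of all genes). It was 3 with pseudocount 0.1 (43.7%), which added ME1 at 1.005. It was 4 with the median set to 0 (37.4% of all genes), 4 with TPM rescaled over nuclear genes (38.0%) and 4 at 1.5-fold (61.8%), TXNRD1 and ME1 being added each time. With pseudocount 5 the SLC7A11 log2 ratio there was 1.204. In the limma test of the lines, the fit without the replicate block called 5 of 9 genes, adding SRXN1, beside 63.7% of all genes. For siRNA the fit without the block called 0 of 9, and 0 of all 12941 genes. Signs of values that did not pass a test depended on the scaling. Between the lines, limma fold changes turned to 0.14 (GCLC) and 0.13 (GCLM) with library medians set to 0, and to 0.088 (NQO1), 0.29 (GCLC), 0.28 (GCLM) and 0.034 (SRXN1) with TPM over nuclear genes. For siRNA, HMOX1 and TXNRD1 turned to 0.0044 and 0.039 with library medians set to 0. With a library left out no residual degree of freedom remained beside the block, so those fits had none, the lone library was assumed to vary like the others, and by construction the siRNA groups then held the lines in unequal numbers. Without HCC827 siCDH3 the siRNA fold changes turned to 0.0051 (NQO1), 1.15 (HMOX1), -1.24 (SLC7A11) and -0.35 (ME1), and without H1299 siCTR to 0.0084 (NQO1), 1.02 (HMOX1), 0.040 (GCLM), -0.91 (SLC7A11) and -0.38 (ME1). They turned to 0.33 (TXNRD1) and -0.14 (SRXN1) without HCC827 siCTR, and to 0.36 (TXNRD1) and -0.15 (SRXN1) without H1299 siCDH3. Between the lines, without H1299 siCTR, NFE2L2 had -0.018, GCLC 0.0043 and GCLM 0.033. None of these reversed values passed a test. Of the log2 ratios of single genes 15 of 165 changed sign, all of them under 2-fold. Of all 363 values of single genes 39 changed sign, 312 kept sign and side, 7 moved, 3 gained and 2 lost a call. Over all genes, 286 passed 2-fold in H1299, with 138 at pseudocount 5, 536 at a filter of 1 TPM and 1199 at 1.5-fold. In HCC827 the counts were 203, then 99, 373 and 650. The siCTR line count was 5195, or 7790 at 1.5-fold. limma called 8138 genes between lines, 4844 without HCC827 siCDH3 and 4815 without HCC827 siCTR. For siRNA the single called gene, TNFRSF6B, was lost with no filter, with no block, with TPM over nuclear genes and without any 1 library. The cause of the other changes was not tested. Depth is unknown, so no limit from counting can be given.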

Other observations

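The ferritin genes ran in opposite directions between the lines. FTH1, the heavy chain that oxidises iron, had 4726 and 4239 TPM in HCC827 siCDH3 and siCTR, against 699 and 584 TPM in H1299 siCDH3 and siCTR. FTL, the light chain, had 1785 and 1633 TPM in HCC827 siCDH3 and siCTR, against 5849 and 5344 TPM in H1299 siCDH3 and siCTR. The ratio of FTH1 to FTL was 2.65 and 2.60 in HCC827 siCDH3 and siCTR, against 0.120 and 0.109 in H1299 siCDH3 and siCTR. Both have processed copies elsewhere in the genome, and 19.9% of the 50-base words of FTH1 and 18.3% of those of FTL occur in other genes, so their TPM depend on how shared reads were assigned.

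Some antioxidant genes were near or at 0 in H1299. GPX1, the cytosolic glutathione peroxidase, had 181 and 231 TPM in HCC827 siCDH3 and siCTR, against 0.273 and 0.215 TPM in H1299 siCDH3 and siCTR, and it shares 14.7% of its words with other genes. PRDX2 had 88.7 and 85.6 TPM in HCC827 siCDH3 and siCTR, and 0.094 TPM in H1299 siCDH3, and was listed at 0 in H1299 siCTR. MGST2 had 36.9 and 37.2 TPM, and TXNIP, an inhibitor of thioredoxin, 64.1 and 88.1 TPM in HCC827 siCDH3 and siCTR, and both were listed at 0 in both H1299 libraries. A value listed at 0 in a TPM table can also be a failed estimate.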
